A study of Mus musculus with 2 samples.

Results

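Interactions that span less than 50 kb are the shortest contacts in the 2 lists of H3K27ac-anchored chromatin interactions of mouse microglia analysed here. Every interaction in which the start of the second anchor lay less than 50 kb downstream of the start of the first was taken, which left distances of 20, 30 and 40 kb between bins of 10 kb. The rule used distance alone, and it found 9625 of 61966 interactions. In sham microglia there were 2441 of 19061, and at day 6 after stroke there were 7184 of 42905.

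H3K27ac HiChIP joins pieces of chromatin that lie close together in the nucleus, pulls down those that carry acetylated lysine 27 of histone H3, and counts how often each pair of places was joined. The sham library came from wild-type C57BL/6J male mice of 8 to 24 weeks that had the surgery with no occlusion. The day 6 library came from mice of the same genotype, sex and age range, 6 days after a transient middle cerebral artery occlusion (MCAO) of 60 min. From the sham-operated or the ischemic hemisphere, 200000 to 300000 cells of intermediate CD45 and CD11b staining were sorted as microglia, and this gate does not by itself separate microglia from every infiltrating myeloid cell. How many animals were pooled for a library was not given. With 1 library per condition, no difference below has a replicate check and no test between the conditions was possible. Intervals are exact 95% binomial (Clopper-Pearson) intervals for shares and exact 95% Poisson intervals for sums of contacts. They cover counting error only, because PCR copies without a molecular identifier are not separate molecules.

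H3K27ac marks active promoters and enhancers. In microglia, as in other macrophages, PU.1 and its partner factors open enhancers that often lie inside the genes they serve, in introns, or in the gap between a gene and its neighbour. Contacts over such short spans are also the most frequent contacts of the chromatin fibre by chance alone. A caller of interactions therefore expects many of them, and asks for many more before it reports a pair.

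Promoters that lay in the anchors of interactions under 50 kb are shown for 6 genes on which the results below turn. Each sequence is the 250 bases before the transcription start, read 5′ to 3′ on the strand of the gene, from RefSeq for GRCm38.p6. Capitals mark matches, on either strand, to 4 motifs, and no 2 matches overlap in these windows. The motifs are GAGGAAG for the core of PU.1 sites, TGANTCA for the AP-1 site, GGGCGG for the GC box, and the CCAAT box by its name. Those of Tgfbr2 (chr9:116175364-116175613, minus strand), Wasf2 (chr4:133130383-133130632, plus strand), Slc39a13 (chr2:91070316-91070565, minus strand) and Orai1 (chr5:123014824-123015073, plus strand) lay in an anchor in both lists. Those of Smad3 (chr9:63757995-63758244, minus strand) and Zfp36 (chr7:28379229-28379478, minus strand) lay in an anchor at day 6 only.
Tgfbr2: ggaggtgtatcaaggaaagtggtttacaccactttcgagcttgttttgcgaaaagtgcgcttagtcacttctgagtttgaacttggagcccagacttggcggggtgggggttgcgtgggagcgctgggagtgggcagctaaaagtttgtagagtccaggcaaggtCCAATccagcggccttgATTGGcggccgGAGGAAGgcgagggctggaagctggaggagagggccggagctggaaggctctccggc
Wasf2: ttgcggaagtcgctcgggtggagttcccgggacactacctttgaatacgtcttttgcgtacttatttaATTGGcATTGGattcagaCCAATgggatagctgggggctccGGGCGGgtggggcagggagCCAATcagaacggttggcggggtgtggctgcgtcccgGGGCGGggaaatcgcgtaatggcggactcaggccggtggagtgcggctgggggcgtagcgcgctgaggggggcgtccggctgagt
Slc39a13: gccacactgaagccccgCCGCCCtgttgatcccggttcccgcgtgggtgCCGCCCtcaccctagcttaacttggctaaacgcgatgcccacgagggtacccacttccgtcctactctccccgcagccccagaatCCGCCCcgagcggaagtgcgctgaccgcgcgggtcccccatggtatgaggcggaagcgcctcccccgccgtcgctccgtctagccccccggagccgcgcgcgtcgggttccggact
Orai1: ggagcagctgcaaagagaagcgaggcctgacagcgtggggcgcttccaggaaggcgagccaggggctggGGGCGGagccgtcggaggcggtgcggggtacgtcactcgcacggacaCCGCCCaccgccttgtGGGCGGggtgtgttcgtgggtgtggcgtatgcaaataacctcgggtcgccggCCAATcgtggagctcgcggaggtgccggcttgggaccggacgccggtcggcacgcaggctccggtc
Smad3: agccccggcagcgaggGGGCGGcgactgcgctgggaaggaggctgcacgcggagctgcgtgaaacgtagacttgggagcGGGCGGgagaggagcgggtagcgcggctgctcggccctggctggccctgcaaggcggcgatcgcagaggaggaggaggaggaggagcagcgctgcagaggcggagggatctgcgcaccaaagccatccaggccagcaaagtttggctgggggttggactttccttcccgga
Zfp36: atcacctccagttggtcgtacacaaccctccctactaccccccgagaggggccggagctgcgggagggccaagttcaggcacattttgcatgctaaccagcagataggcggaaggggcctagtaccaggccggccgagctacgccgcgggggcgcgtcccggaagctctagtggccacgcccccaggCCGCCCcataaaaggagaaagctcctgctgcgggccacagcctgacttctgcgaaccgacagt

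Counting back from the transcription start, the Tgfbr2 promoter held a PU.1 core that began at base -57 and CCAAT boxes at -85 and -68. The Wasf2 promoter held GC boxes at -141 and -85 and 4 CCAAT boxes between -182 and -122. Slc39a13 and Orai1 had 3 GC boxes each, Smad3 had 2 and Zfp36 had 1. No match to the AP-1 letters lay in these 6 windows. Of the 17492 coding genes with a promoter in the table, 42.7% had a GC box in this window, 36.3% a CCAAT box, 9.98% a PU.1 core and 6.22% an AP-1 site. Among promoters at an anchor of an interaction under 50 kb the shares were 60.1%, 38.2%, 11.0% and 3.85% in sham (1195 promoters) and 58.9%, 36.7%, 11.6% and 3.62% at day 6 (3145 promoters). Promoters that lay only at anchors of longer interactions had nearly the same shares, with a GC box in 58.7% in sham and 58.5% at day 6 and a PU.1 core in 10.9% and 10.3%. The median G and C content of the windows was 59.6% in all 4 of these sets and 55.2% over all genes. The part of base composition in these shares was not tested.

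The day 6 list held 2.94 times as many interactions under 50 kb as the sham list, against 2.15 times as many of 50 kb or more. Among distances up to 50 kb the ratio was highest at 20 kb, although interactions of 1 to 2 Mb had a higher one (7.95 times). At 20 kb the sham list had 744 interactions and the day 6 list 2937 (3.95 times), at 30 kb 811 and 2243 (2.77 times), at 40 kb 886 and 2004 (2.26 times), and at 50 kb, the first distance outside the rule, 848 and 1764 (2.08 times). In sham the number was lowest at 20 kb, while at day 6 it was highest there. Interactions under 50 kb were 12.8% (12.3 to 13.3%) of all interactions in sham and 16.7% (16.4 to 17.1%) at day 6. They held 120259 contacts in sham, which was 24.0% of the list, and 294818 at day 6, which was 27.4%.

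By their medians, interactions under 50 kb carried more contacts than longer ones, and those of the sham list carried more than those of the day 6 list. The median count of a sham interaction was 45 contacts with an interquartile range of 34 to 61, and that of a day 6 interaction was 36 with a range of 26 to 50. Interactions of 50 kb or more had medians of 20 and 19. The order of the libraries turned when the count was divided by the number that the caller expected for that distance and those anchors. The ratio of observed over expected contacts had a median of 2.46 in sham, with quartiles at 2.14 and 2.93, and of 2.91 at day 6, with quartiles at 2.43 and 3.63. The median was 2.24 at 20 kb and 2.89 at 50 kb in sham, and 2.77 and 3.30 at day 6. Over all interactions of 50 kb or more the medians were 4.45 and 4.33, so among called interactions the shortest stood least above expectation. Only called pairs enter this ratio, and the threshold of the caller sets a floor to it. At a relative coverage of 1 that floor in sham was 2.07 at 20 kb and 2.54 at 40 kb. At day 6 it was 2.32 and 2.64. The part of this floor in the differences by distance and between the lists was not tested. The expected count itself had a median of 18.0 contacts in sham and 11.9 at day 6. In another setting each count was divided by the geometric mean of the relative coverage of its anchors, with no term for distance. Over the median of that value in the whole list, interactions under 50 kb had medians of 1.98 in sham and 1.65 at day 6. These set short interactions against the typical interaction of their own list, so they cannot order the libraries.

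**Figure D1:**
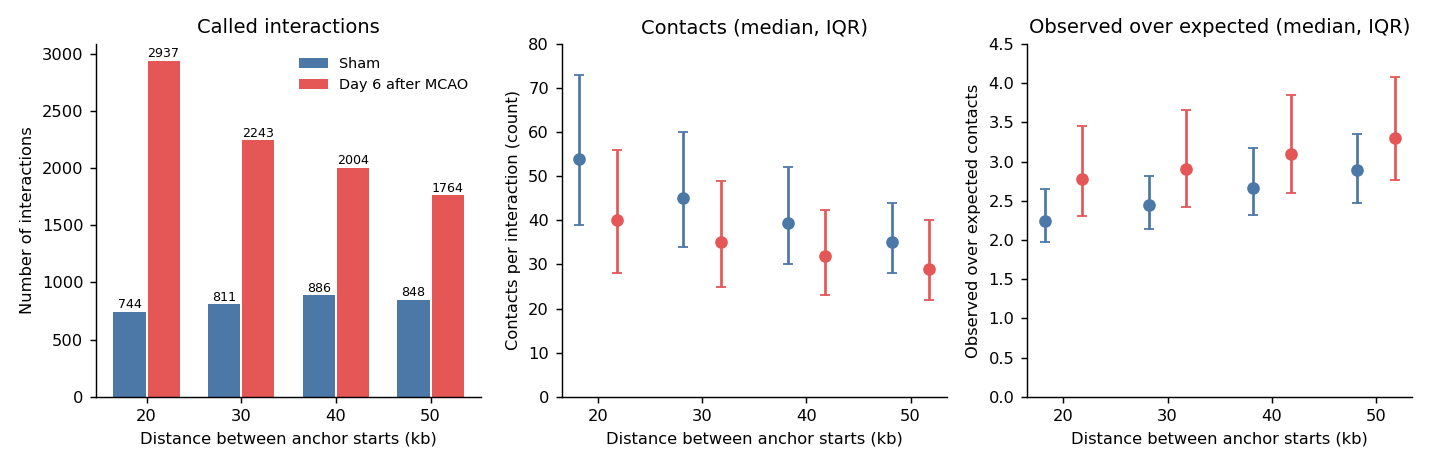
Number of called interactions (bars), contacts per interaction and observed over expected contacts (points, median with interquartile range) by distance between anchor starts in kb, for the sham and day 6 lists. The day 6 list has more interactions at each distance, most of all at 20 kb (2937 against 744), with fewer contacts each and a higher ratio to the expected count.

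The number of contacts that the caller asked for differed between the lists. The expected counts in the files followed exactly from the distance and from the relative coverage of both anchors, which is the coverage of a bin divided by a constant of its library. At a relative coverage of 1, the sham list expected 20.3 contacts at 20 kb and the day 6 list 12.1, and the fewest contacts that would have passed its threshold, called the bar from here on, were 42 and 28. At 30 kb they were 33 and 25, and at 40 kb 29 and 22. Between well covered anchors, at a relative coverage of 2, the bar at 20 kb was 117 contacts in sham and 65 at day 6. The gap between the lists thus narrowed with distance, as did the ratio of their numbers. The caller modelled 3629250 contacts in sham and 2258259 at day 6, so the library with more modelled contacts had the shorter list.

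Of all pairs of anchors 20 to 40 kb apart, 13.5% were called in sham (2441 of 18115) and 18.3% at day 6 (7184 of 39254). In 15809 of these pairs both bins were anchors in both lists, which sets the libraries side by side over the same places. Among these, 2191 were called in sham (13.9%, 13.3 to 14.4%) and 3366 at day 6 (21.3%, 20.7 to 21.9%), a ratio of 1.54, and 945 were called in both. At 20 kb the shares were 11.7% and 24.2%, at 30 kb 14.0% and 20.3%, and at 40 kb 16.2% and 19.0%. In 94.8% of these pairs the sham list needed more contacts than the day 6 list, with medians of 39 and 28. At 20 kb, anchors of relative coverage 1.5 or more were called in 12.4% of 703 pairs in sham and in 28.3% of 2290 pairs at day 6 (26.5 to 30.2%), whereas anchors under 0.75 were called in 24.2% and 19.5%. At 40 kb the shares for the best covered anchors were 23.7% and 24.0%, with overlapping intervals. A limit holds for all shares of pairs of anchors, here and below. A bin was an anchor if it held any called interaction of its list, so a pair could enter only because it was itself called. Both anchors also held an interaction of 50 kb or more in 43.5% of interactions under 50 kb in sham and 68.4% at day 6. The part of this in the shares was not tested.

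**Figure D2:**
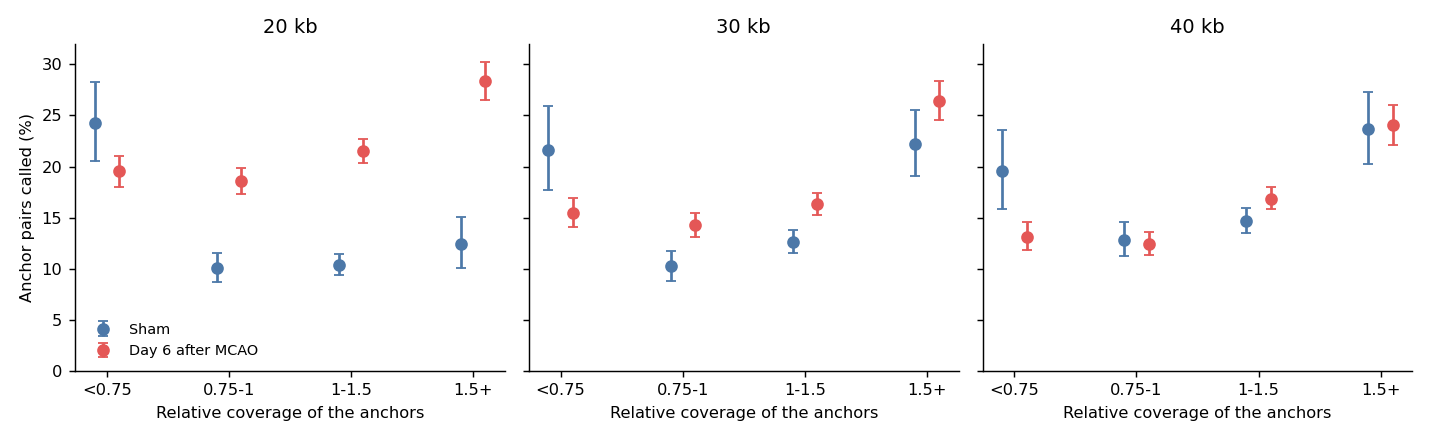
Share of pairs of anchors that were called as interactions (%), by the geometric mean of the relative coverage of the anchors, at 20, 30 and 40 kb, with exact 95% binomial intervals. At 20 kb the day 6 share is above the sham share in every class of coverage but the lowest, and at 40 kb the libraries differ little above a coverage of 0.75.

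Interactions under 50 kb lay within 1 gene more often than in any other placement. An interaction was placed within a gene when both anchors overlapped the span of the same protein-coding gene with 1 kb on each side, between genes when both anchors were on genes with none in common, and from gene to flank when 1 anchor was on a gene and the other on none. In sham 997 (40.8%, 38.9 to 42.8%) lay within a gene, 718 (29.4%) between genes, 560 (22.9%) from gene to flank and 166 (6.80%) on no gene. At day 6 these were 3026 (42.1%, 41.0 to 43.3%), 1906 (26.5%), 1520 (21.2%) and 732 (10.2%). Interactions of 50 kb or more lay within a gene in 11.0% and 7.65% and between genes in 46.8% and 56.9%. Over all pairs of bins 20 to 40 kb apart in the genome, 29.4% lay within a gene, 8.16% between genes and 46.9% on no gene. Over all pairs of anchors at those distances, called or not, 37.3% in sham and 36.9% at day 6 lay within a gene. Between genes lay 28.8% and 30.4% of these pairs of anchors, and on no gene 10.9% and 10.8%. Beside this background the called share between genes was thus close in sham and lower at day 6. The share within a gene was lower at longer distances, from 52.2% at 20 kb to 32.96% at 40 kb in sham and from 50.3% to 33.1% at day 6. At 40 kb the share between genes was slightly above it, at 34.99% in sham and 35.3% at day 6, with overlapping intervals.

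**Figure D3:**
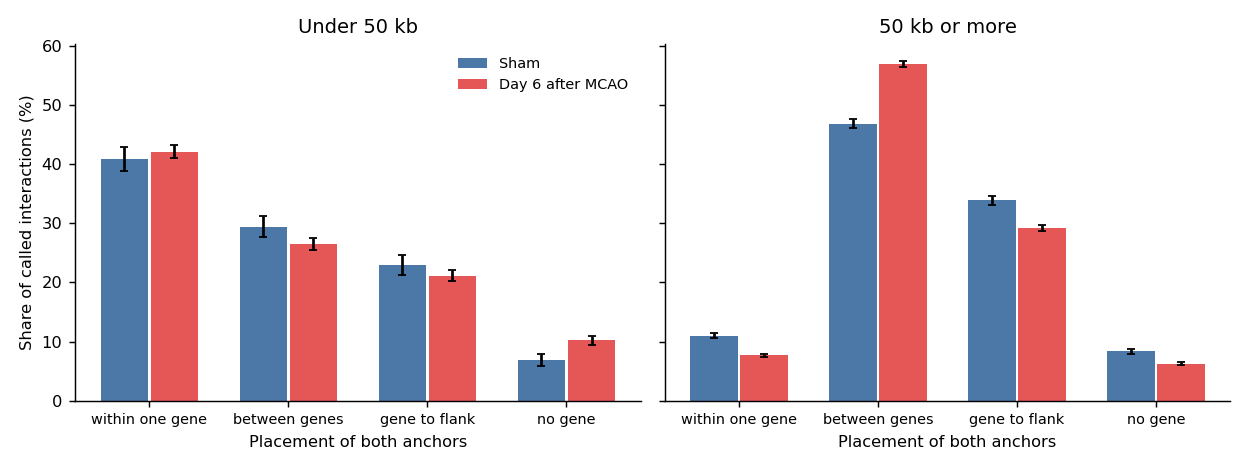
Share of called interactions (%) by placement on protein-coding genes, under 50 kb and at 50 kb or more, in the sham and day 6 lists, with exact 95% binomial intervals. Within a gene is the largest class under 50 kb (40.8% and 42.1%) and a small class at longer distances (11.0% and 7.65%).

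Shares of the classes within a gene and from gene to flank had overlapping intervals in the lists. That of the class on no gene was higher at day 6, with intervals of 5.83 to 7.87% in sham and 9.50 to 10.9% at day 6, and that between genes was slightly lower, with 27.6 to 31.3% and 25.5 to 27.6%. Pairs of anchors on no gene were called in 8.44% in sham, below the 13.5 to 14.7% of the other classes. At day 6 they were called in 17.2%, beside 20.9% of the pairs within a gene, 17.7% of those from gene to flank and 16.0% of those between genes. Median contacts per interaction were 48 within a gene, 42 between genes, 44 from gene to flank and 45 on no gene in sham. At day 6 they were 38, 36, 34 and 29, lowest on no gene. That class also had a lower median relative coverage at day 6 (0.906, against 1.14 within a gene). Its median expected count was 8.88, against 12.8 within a gene. Of interactions within a gene, 76.6% in sham and 75.7% at day 6 had no other coding gene at either anchor. Of those between genes, 71.6% and 73.9% joined genes with no further gene wholly between the anchors, that is, neighbours. The gene-free anchor of a flank interaction lay within 10 kb of a gene in 51.6% and 50.3% and within 20 kb in 79.3% and 80.4%.

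On the chromosomes with start sites in the promoter table, a transcription start lay in both anchors of 11.3% of interactions under 50 kb in sham and 10.3% at day 6, in 1 anchor of 36.3% and 34.8%, and in neither of 52.4% and 54.9%. Where the interaction lay within a gene, an anchor held the start of that gene in 34.4% and 33.8%. Start sites were available for 17492 of 21887 coding genes. A gene without one counted as having no start at an anchor, so the shares with a start can be too low. The remaining interactions inside genes had no known start of that gene at an anchor. Genes that held an interaction under 50 kb within them were long, with a median of 67.9 kb in sham and 63.9 kb at day 6 against 17.2 kb over all coding genes. A gene under about 10 kb cannot hold such a pair except through its flanks and bin edges, so this follows in part from the rule. Among genes of 100 to under 200 kb, 9.10% held at least 1 in sham and 23.7% at day 6, and among genes of 20 to under 50 kb 3.36% and 10.4%.

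Of the genes with any interaction, 2444 of 9417 had an anchor of an interaction under 50 kb in sham (26.0%) and 6087 of 13423 at day 6 (45.3%). In 597 genes (6.34%) in sham and 1700 (12.7%) at day 6 at least 1 such interaction lay within the gene, and 466 genes did so in both lists. Most anchors were also used over longer spans, since 60.2% of the anchors under 50 kb in sham and 79.5% at day 6 held an interaction of 50 kb or more as well.

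Wasf2 held the most contacts within a gene in sham, and Tgfbr2 the most at day 6. Wasf2, which encodes the WAVE2 protein that drives branched actin at the leading edge of motile cells, spans 69.2 kb on chromosome 4. It held 10 interactions and 728 contacts within it in sham and 9 interactions and 598 contacts at day 6. The strongest joined the bins centred 24.4 and 44.4 kb after its start, and counted 121 contacts in sham and 118 at day 6, or 2.00 and 2.11 times the expected count. From the bin of its start to the bins at 24.4 and 44.4 kb there were 73 and 80 contacts in sham and 72 and 56 at day 6. In the 3′ part of the gene, 104 contacts between the bins at 34.4 and 54.4 kb and 84 between those at 44.4 and 64.4 kb in sham had no called counterpart at day 6, where 85 and 60 would have been needed. At day 6, in turn, interactions of 53 and 57 contacts linked the gene to the bin of its neighbours Gpr3 and Cd164l2, just above sham bars of 51 and 52.

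Tgfbr2, the type II receptor for TGF-beta, the cytokine that maintains the microglial state, spans chr9:116087695-116175363. It held 6 interactions and 605 contacts within it in sham and 10 interactions and 799 contacts at day 6. In sham the largest joined the bin of its start to the bin 40.4 kb inside the gene with 155 contacts, where day 6 had 121. At day 6 the largest joined the start to the bin at 30.4 kb with 140 contacts, 2.84 times the expected count. That pair was not called in sham, where 90 contacts would have been needed, so it had at most 89 there. The bins at 10.4 and 30.4 kb were joined by 119 contacts in sham and 89 at day 6, and those at 20.4 and 40.4 kb by 76 and 80. A flank interaction of 46 contacts between the start and a bin 39.6 kb upstream was called in sham only.

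**Figure D4:**
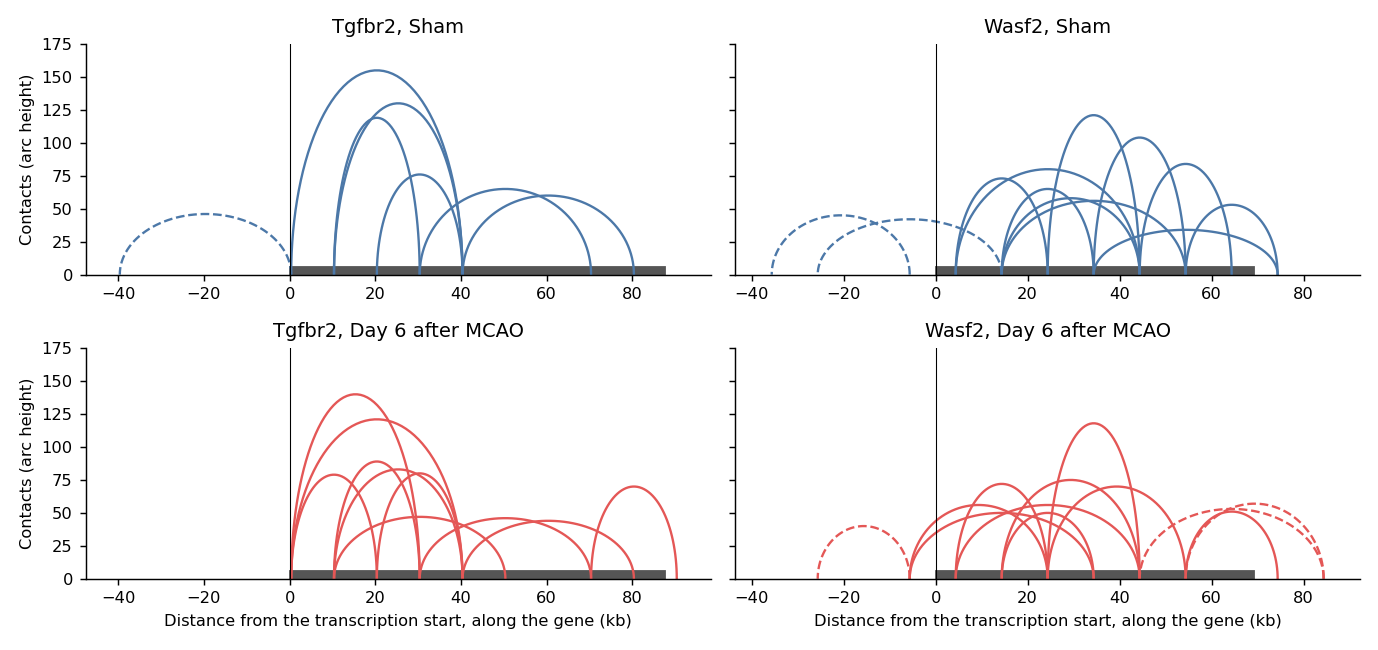
Interactions under 50 kb of Tgfbr2 and Wasf2 in sham and at day 6, with arc height giving contacts and the horizontal axis the distance from the transcription start along the gene in kb; solid arcs lie within the gene, dashed arcs reach a flank or a neighbour, and the grey bar is the gene. The arcs of Tgfbr2 from its start reach 155 contacts in sham and 140 at day 6.

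Smad3, which carries the TGF-beta signal to the nucleus, held 7 interactions and 447 contacts within it in sham and 10 and 485 at day 6. All 7 in sham joined bins in the body of the gene, the largest with 97 contacts where day 6 had 83. At day 6 the bin of its start was an anchor too, with 46 contacts to the bin at 42.99 kb and 49 to that at 22.99 kb, against bars of 34 and 54 in sham. Ski, a repressor of Smad proteins, held 4 interactions and 309 contacts in sham and 7 and 573 at day 6. Other genes with many contacts in both lists were Fmnl3, a formin that elongates actin filaments (541 in sham and 627 at day 6), Zfp710 (572 and 426), Irak2, a kinase family member of Toll-like and interleukin-1 receptor signalling (493 and 455), Soga1 (436 and 499) and Ubash3b, a phosphatase that dampens receptor signalling (437 and 432). Sipa1l2 had 444 contacts in sham and 261 at day 6, and Slco2b1, an organic anion transporter, 423 and 231.

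At day 6 several long genes came into the first ranks that had few interactions in sham. Zfhx3, a homeobox and zinc finger factor of 682 kb, held 5 interactions and 359 contacts in sham and 16 interactions and 747 contacts at day 6, the most interactions within any gene. Of its interactions at day 6 alone with both anchors in the sham list, 9 lay below what that list would have reported, such as 57 contacts against a bar of 78, and 2 lay above it, such as 71 contacts against a bar of 53. Etv6, an ETS family repressor, went from 2 interactions and 130 contacts to 6 and 608. The 122 contacts between its start and the bin at 19.3 kb stood above a sham bar of 89, and those of 131, 128 and 90 contacts further along the gene stood above bars of 125, 123 and 79. Ssh2, a phosphatase that activates cofilin, went from 1 interaction and 64 contacts to 7 and 569. Of these, 104 contacts in 1 interaction stood above a sham bar of 71. Those of 95, 97, 91, 70 and 67 contacts lay below sham bars of 103, 103, 137, 88 and 88, so sham may have held as many there. For that of 45 contacts no bar could be set. Itgb5, the integrin beta 5 chain, went from 4 and 275 to 10 and 539. The 9 interactions of Itgb5 called at day 6 alone had 38 to 73 contacts each, each below its sham bar (40 to 109), so sham may have held as many contacts in pairs that it did not report. Trak1, an adaptor that couples mitochondria to kinesin, held 253 contacts in sham and 534 at day 6. The bin of its start and the bin 20 kb further had 154 contacts at day 6 where sham would have needed 69, and 46 contacts over 30 kb stood above a bar of 20, so that pair had at least 2.42-fold more contacts at day 6.

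Neighbouring genes shared a smaller set of strong interactions, several of them at genes that define the myeloid lineage. Spi1 encodes PU.1, the lineage factor of microglia and macrophages, and its neighbour Slc39a13 encodes a zinc transporter. The bin of the Slc39a13 start (shown above) and the bin at Spi1, 20 kb apart on chromosome 2, were joined by 162 contacts in sham (138 to 189) and 181 at day 6 (156 to 209). Over both genes there were 3 interactions and 272 contacts in sham and 3 and 336 at day 6. At day 6 an interaction of 73 contacts within Spi1 was called as well, below the 86 that sham would have needed.

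The interaction between the bin of Sart3 and Iscu and that of Selplg, 40 kb apart on chromosome 5, had 178 contacts in sham and 199 at day 6. It stood out by its ratio, at 4.75 and 5.14 times the expected count, since the other interactions among the 5 with most contacts in each list lay between 1.64 and 2.89 times. Selplg encodes the P-selectin ligand PSGL-1 of leukocytes and microglia, and Tmem119, a microglial marker, lies between these anchors. Tmem119 itself was joined to Selplg by 60 contacts in sham and 45 at day 6, and to the bin of Sart3 and Iscu by 81 and 87 contacts 30 kb away. At 20 kb a further 129 contacts were called at day 6, where the sham bar was 95.

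Kdm2b and Orai1 shared the most contacts of any neighbours in sham, with 3 interactions and 313 contacts (279 to 350), against 4 and 276 at day 6. Orai1 forms the pore of the store-operated calcium channel. Foxj2 and C3ar1, the receptor for complement C3a, had 165 contacts in sham and 251 at day 6. BC049352 and Il10ra, the interleukin-10 receptor chain, were joined by 164 and 122 contacts in their largest interaction. Cd52 and Ubxn11 had 192 and 214 contacts, Cdk9 and Sh2d3c 242 and 153, and Serinc3 and Pkig 188 and 85.

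In raw contacts, Rela and Nfkb2, which encode NF-kB subunits, were among the leading neighbours with the largest differences. Rela, the p65 subunit, and its neighbour Kat5, an acetyltransferase, were joined by 1 interaction and 74 contacts in sham and by 3 interactions and 326 contacts at day 6 (292 to 363). The largest at day 6, with 144 contacts over 20 kb, stood above a sham bar of 88. Rela also reached Sipa1 and Pcnx3 on its other side at day 6 alone, with 35 to 62 contacts in each of 4 interactions. Nfkb2, the p100 precursor of p52, was joined to the bins of Cuedc2 and Fbxl15 by 82 contacts in sham and by 299 at day 6 (266 to 335), of which 187 lay in a 20 kb interaction at 3.84 times the expected count. At the Zfp36 locus, which encodes tristetraprolin, an RNA-binding protein that shortens the life of cytokine transcripts, the bin of Zfp36 and Plekhg2 and that of Med29, Paf1 and Samd4b were joined by 195 contacts at day 6. In sham this pair was not called, and no bar could be set because an anchor was missing from that list.

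The single interaction with most contacts in both lists ran from gene to flank. It joined a bin without a coding gene to a bin of Plekho2, 20 kb apart on chromosome 9, with 220 contacts in sham (192 to 251) and 230 at day 6 (201 to 262), 1.87 and 2.50 times the expected count. Irf8, an interferon regulatory factor needed for microglial identity, held flank interactions alone. All 7 of its interactions in sham (331 contacts) and all 4 at day 6 (172 contacts) ran between Irf8 and gene-free bins. Between its start and the bin 41.4 kb upstream there were 57 contacts in sham and 58 at day 6, at 3.56 and 5.11 times the expected count. The bin 8.64 kb inside the gene and the bin 31.4 kb upstream had 42 and 61 contacts. The 56 contacts between the start and the bin 21.4 kb upstream in sham were not called at day 6, where 30 would have been enough, so this pair had at most 29 there.

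The largest interaction on no gene was found at day 6 alone, on chromosome 10 between bins that start at 19040001 and 19060001, with 197 contacts (170 to 227). Rassf2, a Ras association domain protein, went the other way. Its interaction of 158 contacts within the gene in sham was absent from the day 6 list, where 119 contacts would have been reported. Lpcat2, an enzyme of platelet-activating factor synthesis, had 113 contacts within it in sham and 191 at day 6.

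Interactions under 50 kb often shared anchors and formed chains. Joined by shared anchors, they made 1521 chains in sham and 4175 at day 6, and 45.1% and 39.4% of interactions stood alone. The longest in both lists lay on chromosome 8 around Jund, an AP-1 subunit, in a gene-dense stretch with Gdf15, Ell, Fkbp8 and Lsm4. In sham it covered 180 kb with 17 interactions and 856 contacts, and a separate chain next to it covered 140 kb with Ifi30, Pik3r2, Mast3 and Il12rb1 (10 interactions, 425 contacts). At day 6 these belonged to 1 chain of 380 kb with 36 interactions and 1558 contacts, and sham had 30 interactions and 1397 contacts over that same stretch. On chromosome X a chain of 170 kb from Praf2 through Tfe3, a lysosomal regulator, to Timm17b held 17 interactions and 423 contacts in sham and 12 and 282 at day 6. Long chains at day 6 also lay at Qk (13 interactions and 948 contacts over 210 kb, with 7 and 485 in sham), Ankrd11, Kdm2a with Grk2, and Fmnl3.

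The number of interactions called in both lists was 945, which was 38.7% of those of sham (36.8 to 40.7%) and 13.2% of those at day 6 (12.4 to 14.0%). For interactions of 50 kb or more the shares were 22.6% and 10.5%. Shared interactions had median counts of 52 (sham) and 48 (day 6), and on the log2 scale the day 6 count was at a median of -0.14 from the sham count, with quartiles at -0.45 and 0.16. Only 12 of the 945 differed by a factor of 2 or more towards day 6 and 24 towards sham, so the raw counts of shared interactions were close. Observed over expected contacts were higher at day 6 in 694 of them (73.4%), with a median log2 difference of 0.23, and in 82.6% at 20 kb. Across the 945 interactions Spearman's rho between the lists was 0.78 for contacts and 0.55 for observed over expected contacts. Both values of a pair share their bins, and interactions are not independent replicates.

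Whether an interaction found in 1 list had more contacts there depended on the scale. Of the 1496 in sham alone, 1246 had both bins as anchors at day 6, and 1231 of these (98.8%) had sham contacts that would have been enough for the day 6 list. When the sham count was scaled to the modelled contacts of day 6, a factor of 0.622, only 477 (38.3%) would have been enough. Of the 6239 at day 6 alone, 2421 had both bins as anchors in sham, and only 920 of these (38.0%) had contacts that would have passed the sham bar, with medians of 39 contacts and a bar of 43. Scaled up to the sham library, 2293 (94.7%) would have passed. For an interaction with both anchors in the other list, the bar gives the most contacts it can have had there. On this scale of raw contacts, an interaction from Zfp629 to its flank had at least 3.94-fold more contacts in sham (67 against at most 17). At day 6 Gpkow on chromosome X had at least 4.15-fold more (54 against at most 13), an interaction between Clip1 and the bin of Zcchc8 and Rsrc2 at least 2.65-fold more (61 against at most 23) and Ankrd11 at least 2.61-fold more (94 against at most 36). At least a factor of 2 was reached by 199 interactions of sham and by 18 of day 6.

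For each gene, the contacts of all its interactions under 50 kb were summed and divided by all called contacts of the library, after adding a prior of 5 contacts. Genes with 3 or more such interactions in either list were then said to have more contacts at day 6 where the log2 ratio reached 1, and fewer where it was -1 or below. Of 1216 such genes, 448 (36.8%) had more and 204 (16.8%) had fewer. Of those with more, 390 had no interaction under 50 kb in sham, and of the 819 genes with interactions in both lists only 58 had more, while 197 had fewer. This split depends on the scale. Divided by contacts under 50 kb, 431 genes had more and 246 fewer, with a median log2 ratio of 0.19. Divided by the contacts of interactions common to both lists, 736 genes had more and 50 fewer, and divided by the modelled contacts 935 had more and 16 fewer, as the median log2 ratio of the 1216 genes moved from 0.38 to 1.42 and 2.07. Calls below are therefore given beside raw contacts and read against these medians.

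**Figure D5:**
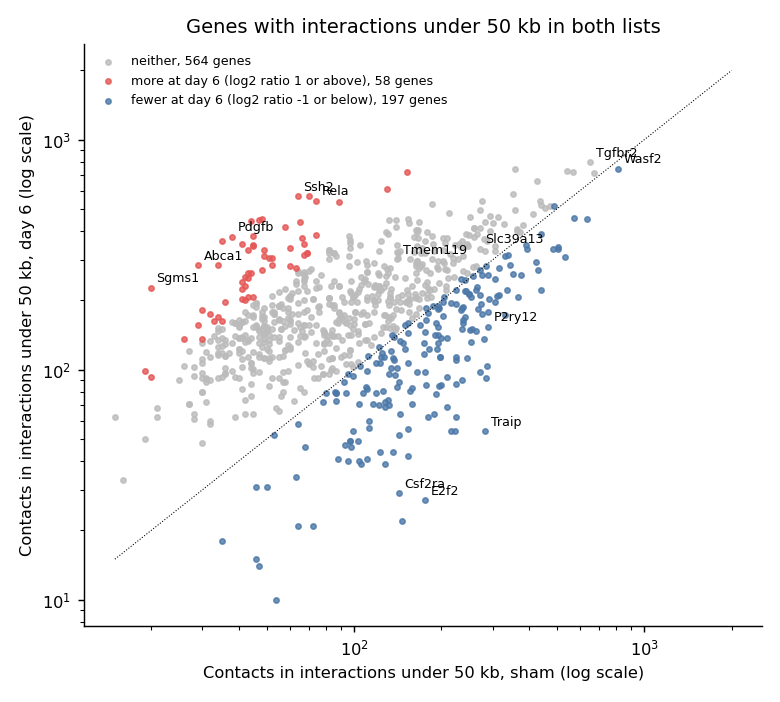
Contacts in interactions under 50 kb per gene in sham and at day 6 (both axes logarithmic), for the 819 genes with such interactions in both lists and at least 3 in 1 of them; the dotted line marks equal contacts and colours mark the call. Most genes lie above the line of equal contacts, 58 are called as having more and 197 as having fewer.

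The genes with the highest ratios among those in both lists were Sgms1, a sphingomyelin synthase (20 contacts in sham and 227 at day 6), Ttc28 (35 and 361), Dyrk1a, a kinase (44 and 445), Pdgfb, the platelet-derived growth factor B chain (38 and 378), Abca1, which exports cholesterol to lipoproteins (29 and 285), Hivep3 (47 and 447), Asap1 (48 and 451) and Ssh2 (64 and 569). All 8 had 1 interaction in sham and 4 to 10 at day 6, with log2 ratios of 2.00 to 2.24. For Ssh2, several of those at day 6 lay below their sham bars, as given above. At Abca1, 118 contacts between the bins 14.9 and 34.9 kb into the gene and 99 between those at 4.90 and 34.9 kb exceeded the sham bars of 85 and 58. Genes with interactions at day 6 alone included Frmd4a (7 interactions, 394 contacts), Nav1 (6 and 374), Inpp5d, the SHIP1 lipid phosphatase of myeloid cells (4 and 359), the neighbours Crybb1 and Cryba4 (5 and 355), Ptpra (6 and 347), Maml1, a Notch coactivator (5 and 341), and Klhdc8b (7 and 328).

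The lowest ratios among genes in both lists were those of E2f2, a cell cycle transcription factor (176 contacts in sham and 27 at day 6), Pmf1 (146 and 22), Traip, a ubiquitin ligase of DNA replication (283 and 54), Csf2ra, the GM-CSF receptor alpha chain (143 and 29), Cdhr4 (223 and 54), Uba7, the activating enzyme of ISG15 (216 and 54), Wdr44 (54 and 10) and Slc25a44 (225 and 62). Their log2 ratios were -3.50 to -2.83, and they stayed at or below -1 when divided by modelled contacts (-1.88 to -1.13). Traip, Cdhr4 and Uba7 are neighbours on chromosome 9 that share bins, so they are not 3 separate cases. Pmf1 and Slc25a44 adjoin on chromosome 3 and overlap the same bin, so they are not fully separate either. Only 7 genes with at least 3 interactions in sham had none at day 6, namely Slc16a1, a lactate transporter (124 contacts), Morn1 (119), the neighbours Lypd3 and Phldb3 (97 each), Zfp786 (79), Sash3 (71) and Slc25a5 (62). Tra2a, the next by the same ranking, had interactions at day 6 alone (3 interactions, 52 contacts).

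Gene lists for microglial functions were set against these backgrounds. Of the homeostatic genes of microglia with any interaction, 14 of 31 had one under 50 kb in sham (45.2%) and 24 of 31 at day 6 (77.4%), against 26.0% and 45.3% of all genes. Summed gene by gene, they held 3005 contacts in sham and 4120 at day 6. Here and in the totals of lists and markers below, an interaction at more than 1 member was counted for each. Of the 12 homeostatic genes with enough interactions for a call, 2 had more, 4 had fewer and 6 neither, against 36.8% with more and 16.8% with fewer over all genes. The median log2 ratio of the 12 was -0.57, against 0.38 over all genes. P2ry12, the ADP receptor that steers microglial processes, had 4 interactions and 290 contacts in sham and 3 and 154 at day 6. Its sham interactions of 80, 70 and 75 contacts were not called at day 6, where the bars were 50, 37 and 52. Its bins also lie in Med12l, and some in P2ry13.

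Cx3cr1, the fractalkine receptor, had 5 interactions in each list, which held 306 contacts in sham but 197 at day 6. The bin of its start and a gene-free bin 33.3 kb downstream of the start had 80 contacts in sham and 45 at day 6. Tyrobp, the DAP12 signalling adaptor, had 149 and 72 contacts, and Gpr34, a lysophosphatidylserine receptor, 125 and 118. Selplg had 283 and 439, Tmem119 141 and 302, and Mertk, a receptor for apoptotic cells, 281 and 371. Csf1r, the receptor for the survival factor CSF1, had none in sham and 3 interactions with 168 contacts at day 6, of which 51 and 60 contacts lay below sham bars of 87 and 85. Cst3, which encodes the abundant protease inhibitor cystatin C, had 126 contacts in sham and none called at day 6, where an anchor of each pair was not in the list. Divided by modelled contacts, none of the 12 genes had fewer, and the log2 ratios of P2ry12 and Cx3cr1 were -0.22 and 0.05.

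Transcription factors of microglia held interactions under 50 kb in 17 of 32 genes in sham (53.1%) and 28 of 34 at day 6 (82.4%). Over all genes the shares were 26.0% and 45.3%. In 6 and 16 of these factors an interaction lay within the gene. Of all 1216 genes with enough interactions, 36.8% had more and 16.8% fewer. Of the 13 factors among them, 4 had more, 5 had fewer and 4 neither. Those with fewer were Irf8 (331 and 172 contacts), Mef2c (277 and 257) and Mef2a (197 and 186), MADS-box factors of the microglial programme, Tfe3 (124 and 114) and Smad3 (487 and 517), whose raw contacts were higher at day 6. For all but Irf8 the raw contacts differed little and the call follows from the larger total of the day 6 list. By shared interactions or modelled contacts none of the 5 had fewer. Elf1, another member of the ETS family, went from 51 to 305 contacts, and Mitf (210), Nfe2l2 (162), which encodes the oxidative stress factor Nrf2, and Runx1 (157) had interactions at day 6 alone. Ets1 had 140 and 449 contacts, Fli1 293 and 400. Sall1, a factor that keeps microglia distinct from other macrophages, had none in sham and 1 of 54 contacts at day 6, below a sham bar of 75.

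In the list of NF-kB response genes, 10 of 24 genes held interactions under 50 kb in sham (41.7%) and 21 of 32 at day 6 (65.6%). Over all genes the shares were 26.0% and 45.3%. The NF-kB list held 984 and 2627 contacts. Rela had 74 contacts in sham and 543 at day 6, a log2 ratio of 1.73 (1.42 to 2.15). Tnf, the inflammatory cytokine, had 289 and 258, all in bins that it shares with Ltb or Lta. Bcl3, a regulator of p50 and p52, had 143 and 52. Tnfaip2 had 133 and 207, and Relb, another subunit gene, 84 and 86. Nlrp3, the inflammasome sensor, had 52 and 191, Birc3, an inhibitor of apoptosis, 35 and 150, and Rel 56 and 151. Icam1 (144 contacts), Tlr2 (119), Il1a (79), Il1b (72) and Nfkb1 (68) had interactions at day 6 alone. Of 7 genes with enough interactions 1 had more and 2 fewer, against 36.8% and 16.8% of all genes measured.

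The list of immediate early and AP-1 genes had 10 of 29 holders in sham (34.5%) and 22 of 32 at day 6 (68.8%). Over all genes the shares were 26.0% and 45.3%. This list held 1020 and 2271 contacts. Fosb had 265 contacts in sham and 388 at day 6, Ier2 132 and 170, Ier5 101 and 198, Nr4a1 59 and 167, Junb 123 and 97 and Jund 88 and 32. Zfp36 had 244 at day 6 alone. Nr4a3 was the only gene of this list with an interaction within it, at day 6. Of 6 with enough interactions, 1 had more and 1 fewer, against 36.8% and 16.8% of all genes measured.

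Scavenger and phagocytic receptors held interactions under 50 kb in 11 of 22 genes in sham (50.0%) and 19 of 24 at day 6 (79.2%). Over all genes the shares were 26.0% and 45.3%. In 9 and 11 of these receptor genes an interaction lay within the gene. Lrp1, a large endocytic receptor, had 170 and 323 contacts, Itgb2, the shared chain of leukocyte integrins, 222 and 348, Axl 122 and 257, Scarb2 182 and 221, and Itgav 156 and 81. Itgam, the CD11b chain by which the cells were sorted, had none in sham and 152 contacts at day 6. Of the genes of reparative and disease-associated microglia, 9 of 18 were holders in sham (50.0%) and 17 of 28 at day 6 (60.7%). Among them were Cd9 with 244 and 390 contacts, Ctsd, cathepsin D, with 77 and 257, and Cd52 with 249 and 214. Clec7a (45 contacts), Lpl (23), Itgax (21) and Gpnmb (18), which mark that state, had interactions under 50 kb at day 6 alone, whereas the day 6 count was the lower one for Apoe (102 and 85), B2m (62 and 44) and Ctsl (59 and none called). Of 4 genes of this list with enough interactions, none had more, 1 had fewer and 3 neither. Over all genes measured 36.8% had more and 16.8% fewer.

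Antigen presentation genes were holders in 14 of 22 in sham (63.6%) and 16 of 24 at day 6 (66.7%), against 26.0% and 45.3% of all genes. Tapbp, which loads peptide on MHC class I, had 67 and 314 contacts, and H2-K1 34 and 169. Both were called as having more, with log2 ratios of 1.09 and 1.14, but not when divided by contacts under 50 kb (0.91 and 0.96). Cd74, the invariant chain, had 103 and 217, and H2-T23 154 and 107. Tap1, Tap2, Psmb8 and Psmb9 shared 1 interaction of 40 contacts in sham, and none was called at day 6. Of the interferon response genes, 3 of 15 were holders in sham (20.0%) and 10 of 21 at day 6 (47.6%), near the shares over all genes. They held 404 and 674 contacts, of which Irf8 had 331 and 172. Lysosome and lipid genes were holders in 9 of 23 (39.1%) and 16 of 29 (55.2%), with Lgmn at 165 and 98 and Lamp2 at 141 and 102. Cytoskeleton and adhesion genes were holders in 14 of 27 (51.9%) and 22 of 29 (75.9%). Among them Msn, moesin, had 311 and 210 contacts and Cdc42 158 and 232. Housekeeping genes were holders in 11 of 22 (50.0%) and 13 of 25 (52.0%), none within the gene, with Actb at 228 and 247.

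Markers of other cell types were looked at in the same way. Of the markers of monocytes and border macrophages with any interaction, none of 4 was a holder in sham and 4 of 6 were at day 6 (66.7%, against 45.3% of all genes), with 101 contacts in all (Plac8, Lyve1, Mrc1 and Pf4). Ccr2, Ly6c2, Cd163 and F13a1 of that list had none under 50 kb. The lymphocyte marker Cd79a was a holder in both lists, with 39 contacts in sham and 92 at day 6. Of the neutrophil markers only Elane had one, with 85 contacts at day 6. Neuronal markers had 122 contacts in sham, on Rbfox3 and Slc17a7, and none at day 6. Astrocyte markers had 55 in sham, on Slc1a3, and Mbp of oligodendrocytes had 56 in sham and 193 at day 6. Endothelial markers had none in either list. Of 10 microglial markers, 4 were holders in sham (862 contacts) and 9 at day 6 (1131 contacts). The part of other cells in the differences between the lists was not tested.

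Chromosome X stood apart. The mice were male and so carry a single copy of it. It held 210 interactions under 50 kb in sham and 211 at day 6, where autosomes held 2230 and 6972. Its anchors had a median relative coverage of 0.502 in sham and 0.494 at day 6, against 1.17 and 1.13 on autosomes. The interactions had a median of 20 contacts in both lists, and observed over expected contacts were 4.87 in sham and 5.66 at day 6, against 2.40 and 2.88. The lowest ratio that could be called was itself higher at low coverage. At 20 kb and a relative coverage of 0.5 it was 3.39 in sham and 3.72 at day 6, against 2.07 and 2.32 at a coverage of 1. The highest ratios of all lay on the sex chromosomes. Among them were Uty with Ddx3y on chromosome Y (11 contacts in sham, 16.3 times the expected count, and 23 at day 6), Bcor, a transcriptional corepressor (79 and 25 contacts), and Elf4, an ETS factor (18 and 64 contacts). These rest on few expected contacts, 0.674 and 1.35 for the pair on chromosome Y. The part of the floor in these ratios was not tested.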

How the data were processed

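H3K27ac HiChIP was made from sorted microglia in 2 libraries, 1 per condition, and the deposited tables list called interactions between bins of 10 kb. Reads were handled with HiC-Pro 3.1.0 on mm10 (GRCm38), per the submitters' processing notes, and the caller of interactions was not given in the sources used here. Per the file headers, each pair carries a raw contact count, the coverage of both anchors as counts, a bias ratio, a signal of expected contacts, and p-values with a q-value. The deposited q-values were all under 0.001. The bias ratio in the deposited tables was the coverage of a bin over a constant of its library. Contacts are not molecules, since no molecular identifiers were given.

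From these tables, pairs under 50 kb were taken, placed on RefSeq genes of GRCm38.p6 with a flank of 1 kb, and counted with Python 3.11.15, numpy 2.4.6, pandas 2.3.3, scipy 1.17.1 and networkx 3.6.1. The expected count followed exactly from distance, anchor coverage and modelled contacts, so the fewest contacts that would have passed could be worked out for each pair of anchors. Coordinates are 1-based. A gene was compared between the lists by log2 of its contacts plus 5, over all called contacts, for genes with at least 3 interactions in 1 list. With 1 library per group this is a rule of size, and no test was run. The placing and calling steps were tested on simulated data. Named genes were, per list, the 10 with most contacts within the gene, the 5 leading interactions by contacts and by ratio, the 5 leading pairs of neighbours and the 3 longest chains. They were joined by the 8 highest and 8 lowest log2 ratios, separately for genes in both lists and in 1 list, and by up to 6 leading members of each gene list. Other genes, pairs and chains, and the interactions bounded by the other list, were chosen after their values were seen. Members, lists and rules were chosen with earlier results of these data known.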

Additional observations from a re-analysis of the deposited data

How the results depend on the processing

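No paired analysis was possible because each group has 1 library. Depth bears on every number here, since the bar for a call follows from modelled contacts and anchor coverage, and an interaction found in 1 list may have gone unreported in the other. Of 96 alternative values of the main results, 44 stayed within their error or within 1.5 times, and 52 moved; of 682 for single genes and lists, 589 stayed, 73 moved, 12 fell below the rule of size and 8 changed direction. Leaving out chromosome X was chosen after seeing the data.

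With q under 1e-05, interactions under 50 kb were 18.4% of the day 6 list, median contacts were 53 in sham and 42 at day 6, observed over expected contacts 2.75 and 3.28, the shared share 34.6% of sham and 8.88% of day 6, and 228 genes had more and 112 fewer contacts. With the day 6 list shortened to the sham length, its share was 18.5%, its median 44 contacts and 3.39 times the expected count, the ratio of numbers 1.44, the shared shares 24.6% and 17.05%, and 154 genes had more. Under 40 kb the shares of the list were 8.16% and 12.1%, medians 48 and 38 contacts and 2.34 and 2.83 times the expected count, the share within a gene 45.3% and 45.6%, the shared share of day 6 12.2%, and 279 genes had more and 128 fewer. Without chromosome X the sham share of the list was 12.05%, its median 47 contacts, the ratio to expected contacts 2.40 and 2.88, and the shared share of day 6 12.3%. Contacts over anchor relative coverage, divided by the median of the whole list and with no term for distance, were 1.98 in sham and 1.65 at day 6. Pooled over interactions, the ratio to expected contacts was 2.35 and 2.73.

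The share within a gene was 39.9% at day 6 with no flank, 50.9% in sham and 52.0% at day 6 with a flank of 5 kb, 43.3% and 43.8% weighted by contacts, and 5.57% and 5.51% where genes were taken by their ends only. Letting anchors differ by 1 bin made 73.4% of sham and 29.6% of day 6 interactions shared. Genes with more contacts numbered 263 by gene ends only, and 1356 with 470 fewer from 2 interactions on. Scaled by shared interactions 736 had more and 50 fewer, and by modelled contacts 935 and 16. By modelled contacts the log2 ratio turned above 0 for Sipa1l2 (0.10), Slco2b1 (0.15), Wasf2 (0.56), Zfp710 (0.36) and Smad3 (0.76), which had been called as having fewer contacts. It also turned for other genes, among them Tgfbr2 (-0.80 to 0.97), Irak2 (-0.75 to 1.02) and Fmnl3 (-0.66 to 1.11), which had no call. Smad3 was at 0.081 by shared interactions and 0.53 by gene ends only, and Zfp710 at 3.03 by gene ends only. The cause of these moves was not tested beyond what each setting changes by its construction.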

Other observations

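The ratio of the lists varied among chromosomes. Chromosome 1 held 28 interactions under 50 kb in sham and 261 at day 6 (9.32 times), chromosome 12 held 27 and 188 (6.96 times), chromosome 8 held 254 and 550 (2.17 times) and chromosome 9 held 247 and 563 (2.28 times). In sham they were 3.30% of all interactions of chromosome 1 and 18.8% of those of chromosome 8. Per Mb, chromosome 9 had the most in sham (1.99) and chromosome 1 the fewest among those named (0.144), and at day 6 the values were 4.53 and 1.34.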
